A study of Mus musculus with 12 samples.

Results

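Narrow distal peaks found only in brown fat were short stretches of open chromatin away from gene starts that had no counterpart in inguinal fat. A brown fat peak was a member when it lay more than 1000 bp and at most 50000 bp from the nearest transcription start site, was less than 1500 bp wide and shared no base with any inguinal fat peak. The rule used positions and peak calls but no comparison of the genotypes. It was met by 16811 of the 58558 brown fat peaks (28.7%), or 56.0% of the 30030 narrow distal peaks of brown fat, and the other 13219 narrow distal peaks overlapped an inguinal peak.

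ATAC-seq, in which the Tn5 transposase cuts and tags DNA that is free of nucleosomes, had been run on brown and inguinal fat of C57BL/6 mice. The flox mice carried floxed alleles of BAF60a, encoded by Smarcd1, and were the littermate controls of the AKO mice, which carried the same floxed alleles and an Adiponectin-Cre transgene that is active in adipocytes. The brown fat libraries came from 3 flox and 3 AKO mice, 1 mouse per library, of whole tissue, in which vascular, immune and stromal cells keep BAF60a. The inguinal libraries were 3 aliquots per genotype of 1 pool of fat pads from 6 cold-acclimated mice, were counted and normalized on their own, and served here only for the positions of their peaks. Tissue, cold acclimation, pooling and depth therefore cannot be told apart as the source of a peak seen only in brown fat. The age and housing of the brown fat mice are not given in the sources used here. A value below is a normalized read count, the reads in a peak divided by the size factor of the library, and values are given for replicates 1, 2 and 3 of a genotype in that order. The p-values measure the spread that remains between these mice after a covariate described below, unless a fit without it is named.

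Enhancers are DNA elements, often within introns or between genes, that bind transcription factors and raise the activity of a promoter at a distance, and they vary more between cell types than promoters do. SWI/SNF complexes, of which BAF60a is a subunit, use ATP to slide or evict nucleosomes at such elements. Brown adipocytes burn fatty acids for heat through the mitochondrial uncoupling protein UCP1, and their gene program depends on nuclear receptors such as PPARγ with its partner RXR, on estrogen-related receptors (ERR), on EBF2 and on the coactivator PGC-1α.

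The central 300 bases of 5 members are shown first, because these members had the smallest p in the DESeq2 test described below among those whose genotypes did not overlap (the first 3 lower and first 2 higher members whose window held no UTR). All sequences are the forward strand of the mm10 (GRCm38) genome, and capitals mark a match to 1 of 11 transcription factor motifs. The windows of the first 3, all lower in AKO mice, held no match. The last 137 bases of the Smarcd1 window, from position 99704331 on, hold coding exon 5 (123 bases) and the start of the next intron. The Eif4a2 window, within exon 1 of Gm8134, held an E-box (CAGCTG).
Smarcd1 intron 4 and exon 5, chr15:99704168-99704467: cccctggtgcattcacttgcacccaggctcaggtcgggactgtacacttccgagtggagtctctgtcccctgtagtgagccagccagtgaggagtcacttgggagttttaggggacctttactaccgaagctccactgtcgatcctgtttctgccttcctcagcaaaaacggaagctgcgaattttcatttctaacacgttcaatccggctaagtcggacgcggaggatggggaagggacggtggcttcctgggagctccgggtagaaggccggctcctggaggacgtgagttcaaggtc
Ucp1 intron 5, chr8:83297337-83297636: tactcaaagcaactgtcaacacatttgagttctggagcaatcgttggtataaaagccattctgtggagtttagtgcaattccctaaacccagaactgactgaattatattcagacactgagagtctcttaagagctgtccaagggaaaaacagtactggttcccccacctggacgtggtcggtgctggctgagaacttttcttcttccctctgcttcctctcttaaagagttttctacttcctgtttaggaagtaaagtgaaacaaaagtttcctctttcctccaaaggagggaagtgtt
Pfkfb3 intron 1, chr2:11515905-11516204: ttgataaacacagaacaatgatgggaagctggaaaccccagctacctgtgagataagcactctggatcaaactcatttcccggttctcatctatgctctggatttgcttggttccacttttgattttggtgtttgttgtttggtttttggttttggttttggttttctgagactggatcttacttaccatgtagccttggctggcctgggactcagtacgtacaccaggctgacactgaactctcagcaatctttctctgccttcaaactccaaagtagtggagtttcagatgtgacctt
Eif4a2, 13332 bp upstream, chr16:23093916-23094215: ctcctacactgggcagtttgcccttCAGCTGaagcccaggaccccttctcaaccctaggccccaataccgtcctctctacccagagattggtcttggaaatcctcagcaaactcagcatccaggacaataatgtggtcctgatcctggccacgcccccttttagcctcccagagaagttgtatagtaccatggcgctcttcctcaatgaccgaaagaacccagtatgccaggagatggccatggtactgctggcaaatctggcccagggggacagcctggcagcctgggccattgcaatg
Sh3glb2, 14892 bp downstream of the start, chr2:30344275-30344574: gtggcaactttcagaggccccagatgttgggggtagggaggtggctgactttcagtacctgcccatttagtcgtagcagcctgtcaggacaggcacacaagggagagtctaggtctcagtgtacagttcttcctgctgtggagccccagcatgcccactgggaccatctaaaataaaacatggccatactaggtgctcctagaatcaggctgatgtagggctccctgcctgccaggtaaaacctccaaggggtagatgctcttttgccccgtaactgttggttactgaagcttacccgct

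The next 4 windows belong to members called lower in AKO mice by DESeq2 that held a match to the PPAR and RXR direct repeat, and they were chosen after their values were seen. The match is the 13-base run in capitals. The genotypes overlapped in the Gpr39 member, with 138, 232 and 269 normalized reads in flox and 127, 185 and 130 in AKO mice. The first Dgat2 window also held an AP-1 match (TGATTCA) and the second an E-box.
Dgat2 intron 1, chr7:99172059-99172358: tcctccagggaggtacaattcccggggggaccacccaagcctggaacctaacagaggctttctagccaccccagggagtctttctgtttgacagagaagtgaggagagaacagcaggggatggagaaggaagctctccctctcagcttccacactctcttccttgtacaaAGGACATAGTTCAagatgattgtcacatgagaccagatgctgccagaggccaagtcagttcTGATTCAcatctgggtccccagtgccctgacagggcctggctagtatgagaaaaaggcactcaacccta
Dgat2, 19527 bp upstream, chr7:99202091-99202390: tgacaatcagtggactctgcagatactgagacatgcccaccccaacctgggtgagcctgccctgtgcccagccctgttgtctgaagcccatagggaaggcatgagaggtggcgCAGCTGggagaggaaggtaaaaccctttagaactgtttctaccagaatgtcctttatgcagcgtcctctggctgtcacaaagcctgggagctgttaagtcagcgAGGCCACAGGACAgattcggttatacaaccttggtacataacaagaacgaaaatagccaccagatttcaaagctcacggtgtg
Gpr39, 14159 bp upstream, chr1:125662688-125662987: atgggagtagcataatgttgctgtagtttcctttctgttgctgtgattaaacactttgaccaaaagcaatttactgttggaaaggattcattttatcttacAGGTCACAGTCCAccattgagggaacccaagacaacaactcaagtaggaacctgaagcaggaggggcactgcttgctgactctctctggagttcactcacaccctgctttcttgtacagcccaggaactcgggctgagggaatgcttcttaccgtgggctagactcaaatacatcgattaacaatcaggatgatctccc
Cyp4a32, 4065 bp upstream, chr4:115596724-115597023: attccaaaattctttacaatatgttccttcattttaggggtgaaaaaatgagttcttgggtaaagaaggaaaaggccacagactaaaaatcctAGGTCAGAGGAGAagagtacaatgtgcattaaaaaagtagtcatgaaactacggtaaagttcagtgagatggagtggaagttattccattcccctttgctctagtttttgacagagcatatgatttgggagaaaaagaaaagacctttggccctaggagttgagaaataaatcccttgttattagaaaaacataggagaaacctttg

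The brown fat libraries held 6336670 to 27500738 reads in peaks, and a member received a median of 43 to 127 reads in a library, so a single member was measured with a counting error that differed between mice. The inguinal libraries were shallower, with 4066720 to 6691161 reads in peaks. Members took 11.3% to 12.8% of the reads in peaks in flox mice and 11.6% to 14.2% in AKO mice, whereas the narrow distal peaks shared with inguinal fat took 21.5% to 22.2% in the 6 mice. The first principal component (PC1) held 55.6% of the variance of the brown fat libraries and was a covariate of the tests. Its scores were −98.2, −41.8 and 14.6 in flox and −0.6, 112.5 and 13.5 in AKO mice. The lowest score was that of the deepest library and the highest that of the shallowest. PC1 was thus not independent of genotype or depth, and fits with it can differ from fits without it.

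Members were narrower and weaker than the narrow distal peaks that inguinal fat also had. Their median width was 322 bp against 513 bp for the shared narrow distal peaks and 482 bp for all brown fat peaks. Their median flox value was 71.4 normalized reads against 161 and 122, and per 1000 bases of peak it was 209 against 300 and 254. Of the members, 56.1% lay in introns, 33.7% between genes, 4.69% in coding exons and 5.54% in other exons or UTRs. The GC content of the central window ran from 46.0% to 54.3% between the quartiles of the members and from 48.7% to 56.7% between those of the shared narrow distal peaks. The table assigned the members to 8862 genes by nearest start, 4846 of them with 1 member and 468 with 5 or more, and 3473 members lay inside a gene other than the assigned one.

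The median gap from a member to the nearest inguinal peak was 8632 bp. The gap was under 1000 bp for 494 members (2.94%) and over 10000 bp for 44.9%. The share of narrow distal peaks with no inguinal counterpart followed their strength. It was 84.6% of those with a mean of under 50 normalized reads over the 6 mice, 50.2% at 100 to 200, 24.0% at 200 to 500 and 7.09% at 500 to 1000. A mean of 500 or more was reached by 76 members, against 1030 shared narrow distal peaks. How much of this relation comes from the lower depth of the inguinal libraries was not tested.

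**Figure D1:**
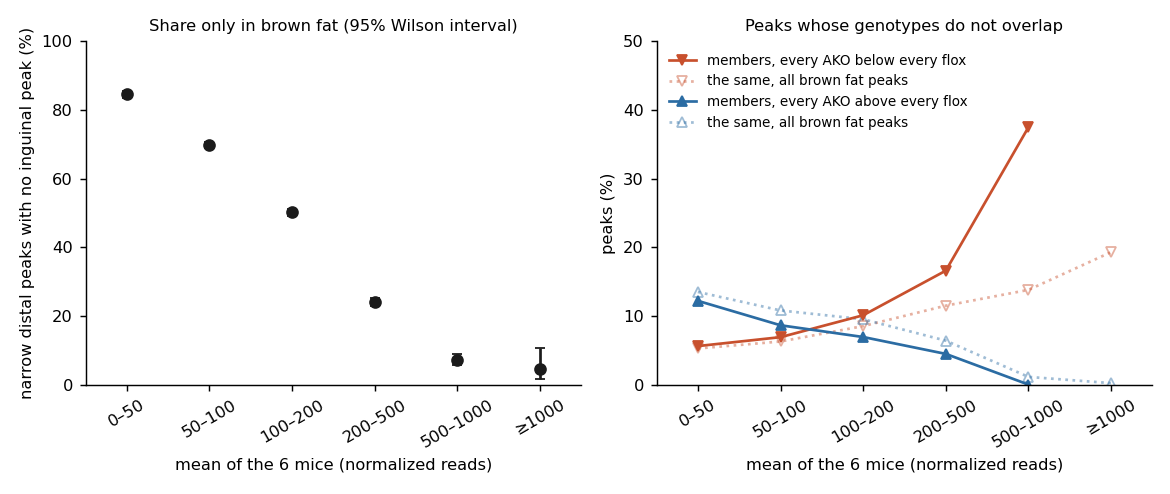
Left, share of narrow distal brown fat peaks that overlapped no inguinal peak (%) in classes of the mean of the 6 brown fat mice (normalized reads, bars are 95% Wilson intervals), which fell from 84.6% in the weakest class to 4.4% in the strongest. Right, share of peaks whose genotypes did not overlap (%), for members (filled, solid) and all brown fat peaks (open, dotted), with 37.5% of members at 500 to 1000 normalized reads lower in every AKO mouse.

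Motif content separated the members from the shared narrow distal peaks most clearly for GC boxes and ERR sites. Motifs were searched on both strands of the central 300 bases. The PPAR and RXR direct repeat (AGGTCANAGGTCA, up to 2 mismatches) occurred in 8.21% of members (95% Wilson interval 7.81 to 8.64), 6.68% of shared narrow distal peaks (6.27 to 7.12) and 6.41% of all brown fat peaks. The ERR site (TCAAGGTCA), whose last 6 letters also form a repeat of the PPAR motif, occurred in 1.4% of members (1.24 to 1.59), 0.598% of shared narrow distal peaks (0.48 to 0.744) and 0.874% of all peaks. The EBF site (TCCCNNGGGA) occurred in 3.14% of members against 2.24% of shared and 2.4% of all peaks. These 3 shares were higher in members, with intervals that did not overlap those of the shared peaks. In the central 200 bases the order held, with 5.95% against 4.69% for PPAR and RXR, 1.02% against 0.401% for ERR and 2.49% against 1.72% for EBF. Over whole peaks, which are wider in the shared set, the PPAR and RXR match was less frequent in members (11.1% against 12.9%), and the ERR and EBF matches stood at 1.93% against 1.44% and 4.16% against 4.03%.

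In the other direction, the GC box (GGGCGG), common in promoters and bound by SP and KLF factors, occurred in 7.37% of members, 14.8% of shared narrow distal peaks and 20.7% of all peaks. The AP-1 site (TGANTCA) occurred in 9.2%, 11.1% and 8.72%, and the E-box CAGCTG in 22.6%, 26.3% and 22.5%. The C/EBP site (TTGCNNAA) was found in 16.2% of members and 17.1% of shared peaks and the MEF2 site in 4.66% and 4.45%, with intervals that overlapped. A match describes letters in the window, not binding, and the intervals cover counting error over peaks, which are not replicates.

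**Figure D2:**
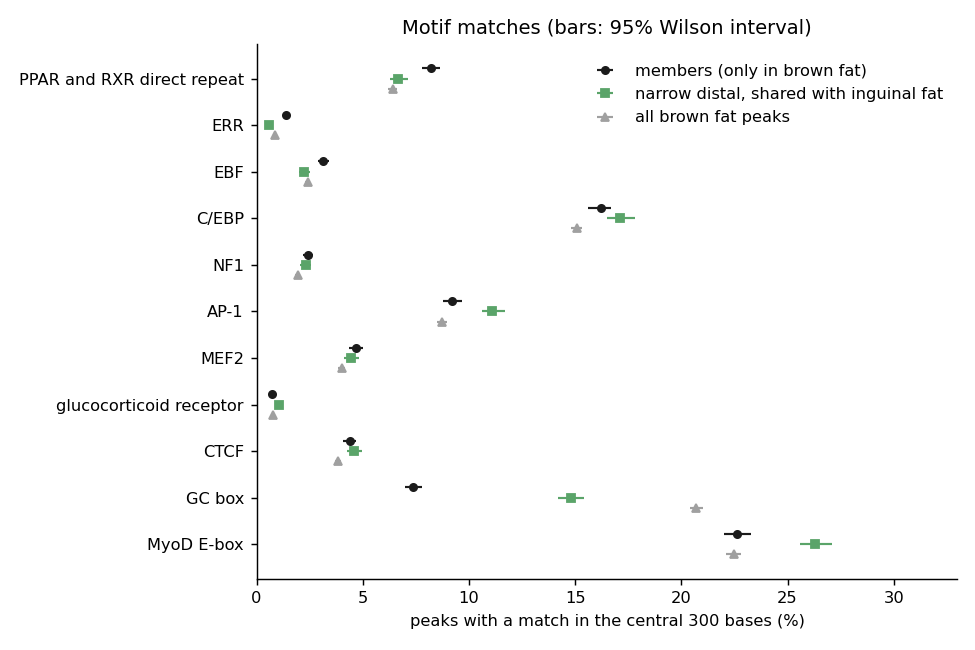
Share of peaks (%) with a match in the central 300 bases, for members, narrow distal peaks shared with inguinal fat and all brown fat peaks, with 95% Wilson intervals. The PPAR, ERR and EBF matches were more frequent in members than in the shared peaks, and the GC box was less frequent (7.37% against 14.8%).

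Loss of BAF60a in adipocytes was next compared with its presence over the members. The limma test on log2 (normalized reads + 1) with PC1, adjusted by Benjamini-Hochberg over all 58558 peaks at a threshold of 0.1, called 0 members lower and 0 higher in AKO mice, against 0.0% of all peaks in each direction. At an unadjusted limma p under 0.05, 1415 members (8.42%) were lower in AKO mice where 5.59% of all peaks were, and 638 members (3.8%) were higher where 3.46% of all peaks were. Without PC1 these counts became 908 lower and 1497 higher, or 5.4% and 8.9% against 4.37% and 7.57% of all peaks. At the same unadjusted p, DESeq2 had 637 lower (3.79% against 3.28%) and 302 higher (1.8% against 2.69%), and edgeR 1077 (6.41% against 5.16%) and 558 (3.32% against 4.52%). Without AKO replicate 1 limma had 399 higher (2.37% against 2.18%). Over the members the log2 fold change, AKO over flox, had a median of −0.07, against 0.03 over the shared narrow distal peaks and 0.01 over all peaks. Without PC1 the median over the members was 0.03. The direction of the members as a whole thus changed with the covariate. Fewer adipocyte nuclei in a tissue and less open chromatin per nucleus cannot be told apart in these bulk samples.

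A count free of any model gave no excess. In 1390 members (8.27%) all 3 AKO mice lay below the lowest flox mouse, against 8.84% of all peaks, and in 1478 members (8.79%) all 3 lay above the highest, against 8.77%. The shares changed with the strength of the member. Among the 1364 members with a mean of 200 to 500 normalized reads, 16.6% were lower in every AKO mouse and 4.47% higher, where all peaks of that strength had 11.5% and 6.4%. Among the 72 members at 500 to 1000, 27 (37.5%) were lower and none was higher, where all peaks had 13.8% and 1.12%. Among the 4597 members under 50 normalized reads, 5.61% were lower and 12.2% higher, where all peaks had 5.26% and 13.5%. None of the 4 members at 1000 or more was lower, where 19.3% of all peaks of that strength were. These differences between classes were not tested.

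DESeq2, the test named in the study's methods, was run anew on the recovered reads with PC1, so its calls are not the study's own. It called 34 members lower and 13 higher at an adjusted p under 0.1. These were 0.371% and 0.142% of the 9169 members it tested, against 0.298% and 0.11% of all 42663 peaks tested. edgeR called 16 lower (0.0952% against 0.114% of all peaks) and 4 higher (0.0238% against 0.029%). All 47 members called by DESeq2 had a limma p under 0.05, and in 26 of the lower and 5 of the higher ones the genotypes did not overlap. The calls rested on few mice. Without flox replicate 1, 2 or 3 the lower calls were 9, 4 and 8 and the higher calls 2, 1 and 1. Without AKO replicate 1 they were 10 and 0, and without AKO replicate 3 the higher calls were 61 (0.664% of members tested against 0.464% of all peaks). With 1 mouse left out, the lower calls were 0.0624% to 0.416% of the members tested, where those of all peaks were 0.0454% to 0.319%. Without PC1 the calls were 80 (0.476% against 0.517% of all peaks) and 102 (0.607% against 0.512%).

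Smarcd1 itself held the member with the smallest p. This member, centred in intron 4 of the gene that AKO mice lack in adipocytes and reaching over exon 5 (chr15:99704113-99704521), had 136, 201 and 185 normalized reads in flox mice and 23.7, 57.9 and 26.9 in AKO mice. The genotypes lay far apart, with a log2 fold change of −2.98 ± 0.265 (SE) in limma and a Benjamini-Hochberg adjusted p of 4.04e-11 in DESeq2. Without PC1 the log2 fold change was −2.33. Unless stated otherwise, log2 fold changes here and below are limma values fitted with PC1. They can therefore differ from the ratio of the reads printed beside them. Whether the Smarcd1 member lies inside the floxed segment is not given in the sources used here, and loss of the DNA and loss of accessibility cannot be told apart.

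The intron 5 member of Ucp1 (chr8:83297198-83297774) had 444, 276 and 232 normalized reads in flox mice and 77.3, 73.4 and 54.7 in AKO mice. The genotypes did not overlap, and the log2 fold change was −1.89 ± 0.326 (DESeq2 Benjamini-Hochberg adjusted p = 1.09e-05). A second Ucp1 member, 13247 bp upstream of the start (chr8:83276933-83277270), had 181, 251 and 153 in flox and 96.9, 83.1 and 60.4 in AKO mice, a log2 fold change of −1.20 (DESeq2 adjusted p = 0.0921). Ucp1 had 6 members, of which 5 had negative log2 fold changes and 4 did not overlap. Only 1 of the 6 lay inside Ucp1. Those 38885, 19095 and 17657 bp upstream lay inside the neighbouring gene Tbc1d9, and the last of these did not overlap between genotypes. The one with a positive value (0.07), 19095 bp upstream, had 36.6, 42.9 and 67.3 against 73.2, 108 and 54.7, which overlapped.

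Members at genes of fuel use followed. Pfkfb3 makes fructose 2,6-bisphosphate, the activator of glycolysis, and its intron 1 member (chr2:11515465-11516644) had 502, 549 and 532 normalized reads in flox and 245, 243 and 296 in AKO mice. These tight groups did not overlap, with a log2 fold change of −0.99 ± 0.196 (DESeq2 adjusted p = 0.000998). A second Pfkfb3 member in exon 8 was also called lower (−1.13, DESeq2 adjusted p = 0.0185), although its genotypes overlapped, with 139, 175 and 216 in flox and 92.8, 180 and 102 in AKO mice.

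Dgat2, which catalyses the last step of triglyceride synthesis, had 3 members, all of them called. The intron 1 member (chr7:99171997-99172420) had 240, 348 and 407 normalized reads in flox and 188, 228 and 182 in AKO mice, a log2 fold change of −1.09 (DESeq2 adjusted p = 0.0016). The member 19527 bp upstream (chr7:99202042-99202438) had 205, 252 and 254 in flox and 144, 176 and 117 in AKO mice (−0.98, DESeq2 adjusted p = 0.0433). The genotypes did not overlap in either, nor in the third, 21654 bp upstream, with 108, 151 and 252 against 93.8, 92.7 and 87.3 (−1.23, DESeq2 adjusted p = 0.0438). The first pair hold the PPAR and RXR matches printed above. Cpt1b, which loads fatty acids onto carnitine for entry into mitochondria, had a PPAR and RXR match in its intron 16 member (chr15:89418016-89419432), with 793, 646 and 708 in flox and 454, 437 and 385 in AKO mice (−0.71, DESeq2 adjusted p = 0.0495).

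The member assigned to Pex5, the receptor for peroxisomal protein import, lay in exon 18 of the neighbouring gene Clstn3 (chr6:124430264-124431476). It had 516, 698 and 520 normalized reads in flox and 258, 365 and 212 in AKO mice, without overlap, and a log2 fold change of −1.34 ± 0.279 (DESeq2 adjusted p = 3.83e-05). A member in intron 1 of Srl, a calcium-binding protein of the sarcoplasmic reticulum, had 439, 505 and 470 against 262, 315 and 272 (−0.87, DESeq2 adjusted p = 0.00613). The remaining lower members without overlap and with the smallest p lay near the noncoding gene Gm15441 (−0.84), Gm13884 (−1.40) and Ldoc1l (−1.39). Other lower calls without overlap included members near Slc4a4, a sodium bicarbonate cotransporter (−0.71), Phospho1, a phosphatase (−1.19), and Fmo1, a flavin monooxygenase (−0.86). The genotypes overlapped in the called member of Car3, carbonic anhydrase of muscle and fat (−1.27). It had 110, 186 and 229 in flox and 89.7, 112 and 91.1 in AKO mice.

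Fewer members were called higher. Peaks were kept when 2 or more replicates of either genotype shared them. Members weak in flox mice could therefore have entered through the AKO mice alone. The member 13332 bp upstream of Eif4a2, which encodes an RNA helicase of translation initiation, lay in exon 1 of Gm8134 (chr16:23093849-23094282) and had 23.0, 26.6 and 29.8 normalized reads in flox and 104, 174 and 95.9 in AKO mice. The genotypes lay well apart (log2 fold change 1.70 ± 0.205, DESeq2 adjusted p = 0.012). A second Eif4a2 member, 22523 bp upstream, had 30.3, 34.0 and 67.3 against 138, 255 and 123 (1.18, or 1.96 without PC1, DESeq2 adjusted p = 0.091). The Sh3glb2 member, near the gene of a membrane-bending endophilin, had 293, 278 and 188 against 391, 323 and 389 (0.89, DESeq2 adjusted p = 0.0309). The Blnk member, near an adaptor of the B cell receptor, had 41.3, 59.1 and 33.6 against 124, 145 and 115 (1.51, DESeq2 adjusted p = 0.0619). The member assigned to Mir6977, in exon 33 of the phosphatase gene Ptprs, had 160, 118 and 84.1 against 242, 164 and 167 (1.14, DESeq2 adjusted p = 0.0426), a gap between the genotypes of only a few reads. The limma adjusted p of the 14 members in the plot of called members was 0.269 to 0.436.

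**Figure D3:**
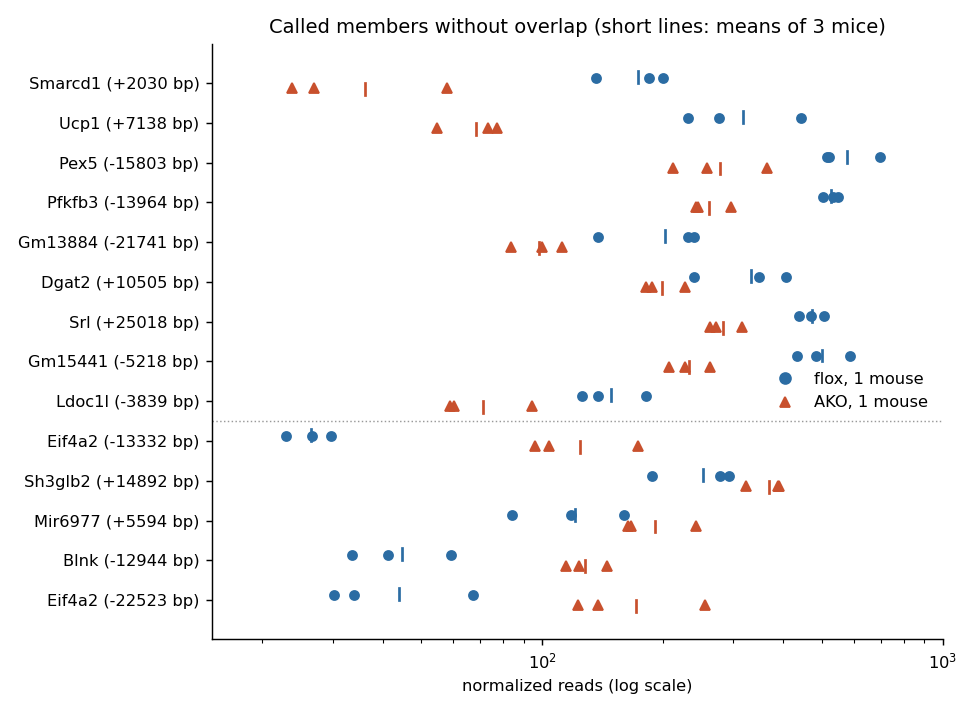
Normalized reads (log axis) in each of the 3 flox and 3 AKO mice for the members with the smallest DESeq2 p among those called without overlap of the genotypes, named by assigned gene and distance from its start (bp), with short lines at the means. The 9 members above the dotted line were lower in every AKO mouse, as in Smarcd1 with 23.7 to 57.9 against 136 to 201, and the 5 below it were higher.

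The 12 members between Hrg and Adipoq on chromosome 16 (22951072 to 23158028) all had higher fitted values in AKO mice, a stretch chosen after its values were seen. It holds the kininogen genes Kng1 and Kng2 and both called Eif4a2 members, and it ends at Adipoq, the adiponectin gene whose regulatory sequence drives Cre in AKO mice. The median log2 fold change was 1.24 (range 0.25 to 2.01), and in 10 of the 12 (83.3%, against 8.77% of all peaks) the AKO mice all exceeded the highest flox mouse. Peaks were kept when 2 or more replicates of either genotype shared them. A member with few flox reads could thus have entered through the AKO mice alone and would then be higher in them by selection, so this count is no test. The intron 3 member of Kng1 had 2.61, 5.91 and 6.47 normalized reads in flox and 25.8, 52.1 and 35.5 in AKO mice. The member 11662 bp upstream of Kng2 had 17.8, 28.1 and 34.9 against 91.7, 116 and 84.4 (1.38). The Adipoq intron 1 member, at the end of the stretch, had 48.1, 37.7 and 46.6 against 70.1, 57.9 and 69.1 (0.69). Extra copies of this DNA in the Cre transgene and more open chromatin cannot be told apart, since every AKO mouse carried Cre and no flox mouse did.

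**Figure D4:**
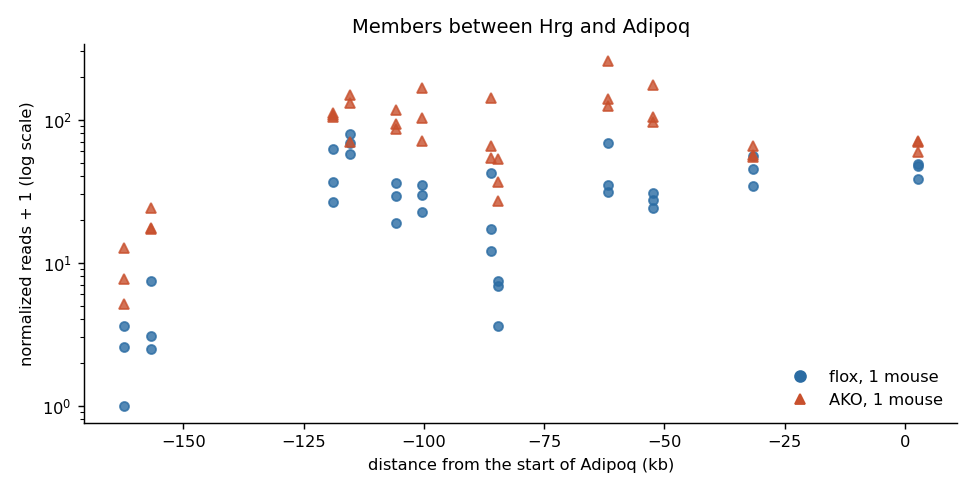
Normalized reads + 1 (log axis) of the 12 members between Hrg and Adipoq against their distance from the start of Adipoq (kb), for each flox and AKO mouse. AKO mice lay above all flox mice in 10 of the 12 members.

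The thermogenic genes were then taken as a list of brown adipocyte genes, which was chosen with earlier results of these data known. Of all narrow distal peaks, 56.0% were found only in brown fat, and the other lists below had 44.4% (immune) to 68.1% (adrenergic and cAMP signalling). Of the narrow distal peaks assigned to the brown adipocyte genes, 118 of 173 (68.2%, 95% Wilson interval 60.9 to 74.7) were found only in brown fat. Among these members 93 of 118 had negative log2 fold changes, with a median of −0.21 against −0.07 over all members and 0.01 over all peaks. In 28 members (23.7%) the AKO mice all lay below the lowest flox mouse and in 2 (1.69%) above the highest, where the shares of all peaks were 8.84% and 8.77%. Without PC1 the median was −0.27. DESeq2 called 3 of the 118, 2 at Ucp1 and 1 at Cpt1b. With 1 mouse left out the counts without overlap became 31 to 47 lower and 2 to 7 higher, where fewer mice make overlap rarer. They were 47 (39.8% against 15.3% of all peaks) and 5 without AKO replicate 1, 44 (37.3% against 16.9%) and 7 without flox replicate 3, 42 (35.6% against 12.9%) and 2 without AKO replicate 2, 6 higher without flox replicate 2, and 5 higher without flox replicate 1 or AKO replicate 3. When Pparg, Ppargc1a and Ucp1 were set aside, 64 of 88 members were negative and 16 (18.2%) lower without overlap. The summed normalized reads of the 118 members were 19678 to 22577 in flox and 15529 to 18661 in AKO mice, without overlap. Their median strength (mean of the 6 mice) was 109 normalized reads. Among all members at 100 to 200 normalized reads, 10.1% were lower and 6.93% higher in every AKO mouse.

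Among the regulators of the brown adipocyte program, Pparg, the nuclear receptor required for adipocyte formation, had 15 members, all with negative log2 fold changes (−0.98 to −0.04), 6 of them lower in every AKO mouse, a pattern that 8.84% of all peaks had. Its intron 4 member 34303 bp from the start (chr6:115456095-115456644) had 169, 208 and 194 normalized reads in flox and 115, 83.1 and 83.5 in AKO mice, a log2 fold change of −0.97 ± 0.243 (limma Benjamini-Hochberg adjusted p = 0.44). Without PC1 11 of the 15 stayed negative. Ppargc1a, which encodes PGC-1α, had 9 members, all negative and 2 without overlap, and the one 15059 bp upstream had 116, 132 and 140 against 87.6, 114 and 87.3 (−0.68). Its relative Ppargc1b had 8 members, all negative and 4 without overlap. Ppara, a receptor for fatty acids, had 4 negative members, of which the one 36164 bp from the start had 534, 524 and 532 in flox and 386, 467 and 413 in AKO mice (−0.43).

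Effectors of thermogenesis and receptors leaned both ways in the fitted values, which include PC1. Dio2, the deiodinase that makes active thyroid hormone, had 3 members, all negative, and its intron 1 member had 70.5, 79.1 and 73.7 normalized reads in flox and 43.3, 42.5 and 43.2 in AKO mice (−0.79, limma adjusted p = 0.436). Both groups were tight and well apart, but the peak had too few reads for an adjusted p from DESeq2. The fatty acid transporter and ligase Slc27a2 had 7 members, all negative and 2 without overlap, and Ucp3, a relative of UCP1, had 2 members, both lower in every AKO mouse. Adrb3, the β3-adrenergic receptor, had 172, 182 and 149 against 109, 81.1 and 128 in the member of smallest p (−0.39), and its other member, with 323, 304 and 283 against 288, 230 and 307, overlapped (0.06). Of the 7 members of Adrb1, the β1-adrenergic receptor gene, 5 had positive fitted values and all overlapped. Most of the 7 nevertheless had lower means in AKO mice, as in the one fitted at 0.4, with means of 178 in flox and 162 in AKO mice. The one with the largest value (1.21) held few reads, 15.7, 11.8 and 3.88 against 18.6, 3.86 and 8.63, and the next (0.63) had 385, 237 and 254 against 391, 321 and 364. All 3 members of Bmp8b, a growth factor of brown fat, were positive (0.04 to 0.18), and one was higher in every AKO mouse, with 34.5, 35.5 and 36.2 against 41.2, 63.7 and 44.1. Irf4, a transcription factor of the thermogenic response, had 7 members, 3 negative and 4 positive in the fit, all overlapping. Its largest fitted value (0.67) went with means of 172 in flox and 139 in AKO mice.

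Genes of brown fat identity were mixed as well. Cidea, a lipid droplet protein of brown fat, had 1 member, in intron 7 of the gene Impa2. It had 63.7, 37.7 and 59.5 normalized reads in flox and 74.2, 59.9 and 32.6 in AKO mice, which overlapped. Prdm16, a regulator of brown fat fate, had 1 member, also overlapping, with 486, 289 and 353 against 340, 311 and 383. The member of Ebf2 with the smallest p had 94.6, 141 and 131 against 69.1, 124 and 138 (−0.53), and 3 of its 4 members were negative, all overlapping. Lhx8, a marker of classical brown fat, had an overlapping member (114, 50.2 and 86.7 against 113, 100 and 75.8) and one that was lower in every AKO mouse by a few reads (305, 262 and 263 against 260, 203 and 243, −0.03). Esrrg, which encodes ERRγ, held an intron 1 member that was higher in every AKO mouse, with 22.5, 25.9 and 20.7 against 47.4, 65.7 and 39.3 (0.88, limma adjusted p = 0.476), and its other 3 were negative. Zic1, a marker of classical brown fat, had a member at 67.9, 68.0 and 75.0 against 60.8, 67.6 and 50.9 (−0.39), a gap of less than 1 read between the nearest mice.

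**Figure D5:**
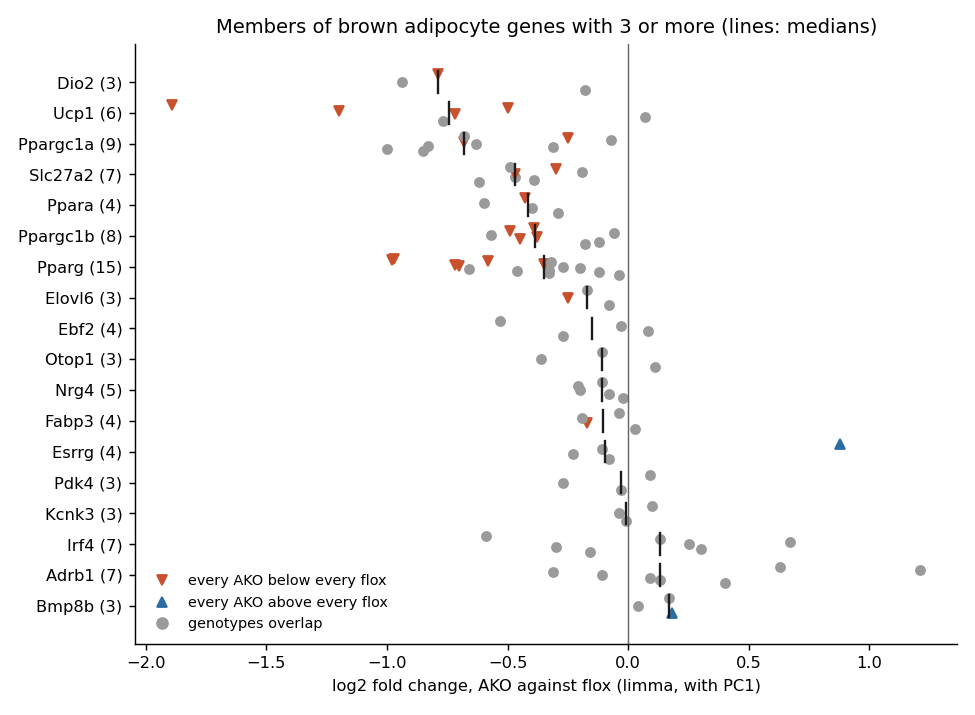
Log2 fold change of AKO against flox (limma with PC1) of each member of the brown adipocyte genes with 3 or more members (number in brackets), with lines at the medians and symbols for whether the genotypes overlapped. All 15 members of Pparg and all 9 of Ppargc1a lie below 0, whereas those of Adrb1 and Bmp8b lie mostly above it. The means of most Adrb1 members, which leave out PC1, were lower in AKO mice.

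Lists for other functions of the adipocyte had medians closer to 0. The 99 members of lipid storage genes had a median log2 fold change of −0.08, with 57 negative. Of these 99, 14 (14.1%) were lower and 5 (5.05%) higher without overlap, where the shares of all peaks were 8.84% and 8.77%, and they summed to 16904 to 17405 normalized reads in flox and 14104 to 16814 in AKO mice. The 79 members of adrenergic and cAMP signalling genes had a median of −0.08, with 10 lower (12.7%) and 3 higher (3.8%) against the same 8.84% and 8.77%. Within these lists single genes leaned in either direction. All 4 members of Akap1, an anchor of protein kinase A at mitochondria, were negative and 3 did not overlap, and all 5 of the kinase gene Sik2 were negative. All 5 members of Acacb, the mitochondrial acetyl-CoA carboxylase, had positive values. The 17 members of SWI/SNF genes had a median of −0.04, with 1 lower, that of Smarcd1 (5.88% against 8.84%), and 3 higher (17.6% against 8.77%).

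Markers of other cell types in the tissue were read in the same way, against the shares of all peaks without overlap (8.84% lower and 8.77% higher). Their members were weaker, with a median strength (mean of the 6 mice) from 51.9 normalized reads (Schwann and neural) to 103 (smooth muscle). It was 109 for brown adipocyte and 132 for lipid storage genes. Among members under 50 normalized reads 5.61% were lower and 12.2% higher, and the part of strength in these lists was not tested. The stromal list had 23 members, with a median of 0.11, 2 lower (8.7%) and 8 higher (34.8%) in every AKO mouse. Its members summed to 1736 to 1860 normalized reads in flox and 1824 to 2183 in AKO mice, which overlapped. Over all brown fat peaks of its genes the list summed to 18238 to 18654 in flox and 17535 to 18651 in AKO mice. Its called member, near the collagen gene Col1a2, was lower (127, 175 and 138 against 62.9, 83.1 and 60.4, DESeq2 adjusted p = 0.0298), whereas a Pdgfrb intron 10 member had 66.9, 56.9 and 69.9 against 105, 114 and 113. The 13 Schwann and neural members had 0 lower and 3 higher (23.1%), and the 27 endothelial members had 1 lower (3.7%) and 2 higher (7.41%), the latter near the share of all peaks. Their sums overlapped (856 to 1180 against 1044 to 1284, and 1777 to 2331 against 2225 to 2901). The 18 skeletal muscle members had 0 lower and 2 higher (11.1%), with sums that overlapped (1721 to 1927 against 1781 to 2181), and the 4 immune members had none without overlap (185 to 221 against 164 to 212).

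The 10 smooth muscle members had a median of −0.39, with 2 lower (20.0% against 8.84% of all peaks) and 0 higher, and their sums did not overlap (1295 to 1636 in flox, 1194 to 1246 in AKO mice). Over all brown fat peaks of these genes the sums did overlap (3499 to 3816 in flox, 3318 to 3592 in AKO mice). The called member, in intron 1 of the desmin gene Des, had 507, 471 and 507 against 298, 348 and 311 (DESeq2 adjusted p = 0.053). No marker list was at 0 in any mouse. The part of cell composition in the adipocyte results was not tested.

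The genotype difference was also read by motif. Of the 1381 members with a PPAR and RXR match, 10.5% were lower in every AKO mouse against 8.07% of those without, and of the 236 with an ERR match 12.7% against 8.21%. Of the 1239 with a GC box, 14.2% were higher in every AKO mouse against 8.36% of those without. For C/EBP the lower share was 10.9% with a match and 7.75% without, and for MEF2 10.8% and 8.14%. The EBF site went the other way, with 5.87% lower with a match against 8.35% without and 12.7% higher against 8.67%, as did the E-box, with 6.17% lower against 8.88% and 10.4% higher against 8.32%. The shares of all peaks were 8.84% lower and 8.77% higher, and these differences were not tested. Members with a match also had somewhat different strength, with a median flox value of 79.2 normalized reads with and 70.6 without a PPAR match, and 65.7 with and 71.9 without a GC box.

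The strongest members were not those that differed most. The highest flox means were those of Sfi1, Gm15441, Klf15, Midn and Gpd1. The Sfi1 member, in intron 4 of a centrin-binding protein gene, had 880, 1442 and 2583 normalized reads in flox and 2007, 4394 and 1953 in AKO mice, which is the reverse order of the library depths within each genotype. A Gm15441 member 7381 bp upstream had 1396, 1213 and 1019 against 811, 367 and 604, without overlap (−0.52, limma adjusted p = 0.559, and −1.09 without PC1). The member upstream of Gpd1, the glycerol 3-phosphate dehydrogenase that links glycolysis to triglyceride synthesis, had 1042, 1171 and 1041 against 885, 842 and 840, also without overlap (−0.32, limma adjusted p = 0.637). This Gpd1 member (chr15:99713702-99714607) also covers the end of Smarcd1, at position 99713991, the gene that AKO mice lack in adipocytes. The members of Klf15 and Midn overlapped between genotypes.

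The genes with the most members were Sipa1l1 with 17 (10 negative), Pparg with 15, Sept9 with 14 (7 negative), and Nedd4l and Pde8a with 13 each (10 and 9 negative). Of these, Pparg was the one with all members on the same side. The Sipa1l1 member of smallest p had 185, 202 and 184 normalized reads in flox and 147, 153 and 151 in AKO mice (−0.35, limma adjusted p = 0.602).

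At the limits of the rule, the widest member, near Cd300a, measured 1499 bp and had 126, 158 and 179 normalized reads in flox and 158, 257 and 148 in AKO mice, and the narrowest peak left out, near Pnp2, measured 1500 bp and had 297, 357 and 248 against 328, 272 and 210. The member closest to a start, in Tmem229b at 1001 bp, had 97.2, 97.5 and 90.5 against 118, 86.9 and 99.8, and the peak just left out, 1000 bp upstream of Mir30a, had 62.2, 71.7 and 68.6 against 70.1, 69.5 and 64.3. The farthest member, 50000 bp from Dmrta2, had 4.18, 2.96 and 14.2 against 13.4, 19.3 and 14.4, and the next peak, 50001 bp from Ipo8, had 28.2, 31.8 and 27.2 against 37.1, 17.4 and 26.9. A member near Fabp4 abutted an inguinal peak with 0 bp between them (19.9, 20.7 and 42.7 against 32.0, 40.6 and 27.8), and a Srebf2 peak left out shared 1 bp with one (119, 138 and 146 against 106, 81.1 and 93.1).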

How the data were processed

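ATAC-seq reads were trimmed with atactk, mapped to mm10 with BWA 0.7.17-r1188, freed of duplicates with Picard 2.8.14 and filtered with SAMtools by the authors, who called broad peaks per library with MACS2 2.1.1.20160309, took from their union the peaks that 2 or more replicates of either genotype shared and counted reads per peak with bedtools 2.27.1. The deposited signal is the read count per peak divided by a DESeq2 (1.20.0) size factor for each library. Multiplying it back gave whole reads for 100% of values (within 0.001). The tables also hold the authors' own fold changes and p-values, which were not used. No per-sample column was left unmapped (0), and 1 called member is not reported here.

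Brown fat values were tested as log2 (signal + 1) with limma 3.58.1 (lmFit and eBayes, genotype and PC1), adjusted by Benjamini-Hochberg over 58558 peaks, with a threshold of 0.1. DESeq2 1.42.0 and edgeR 4.0.16 were run on the recovered reads with PC1, and DESeq2 gave no adjusted p for peaks of low counts. Fits and motif search were tested on simulated data. An exact permutation test of 3 against 3 mice cannot go below p = 0.1, so none was used. Locations and sequences came from the GRCm38 annotation and genome. Wilson intervals cover counting error only, and reads are not independent molecules. Gene names that had been turned into dates were restored for septins.

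The members and gene lists were chosen with earlier results of these data known. The named members were the 5 with the highest flox means, up to 10 per direction with the smallest DESeq2 p among calls without overlap, those of the 5 genes with the most members, the member of smallest limma p for 12 brown fat genes, and examples from the gene lists, beside other DESeq2 calls. Same-numbered flox and AKO mice had correlations of 0.494, 0.063 and −0.236 of their deviations, so the numbers were not taken as pairs. Alternatives were other scalings, pseudocounts of 0.1 and 10, a filter on low values, no PC1, a replicate block, each mouse left out in turn and other rules for the members.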

Additional observations from a re-analysis of the deposited data

How the results depend on the processing

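By limma, 0 members were called in either direction under every scaling, pseudocount, filter, covariate and left-out mouse tried, except that a pseudocount of 10 called 1 lower. DESeq2 called 34 lower and 13 higher, edgeR 16 and 4, and limma-trend, added after seeing the data, 10 (0.0595% against 0.0751% of all peaks) and 3 (0.0178% against 0.0154%). The following DESeq2 settings were also chosen after seeing the data. Without PC1 the calls were 80 and 102, with 1 mouse left out they ranged from 4 to 24 and from 0 to 61, and at an adjusted p under 0.05 they were 24 and 8. The median log2 fold change over the members, −0.07, became 0.03 without PC1 and was −0.11 to −0.03 with 1 mouse left out. Members without overlap of the genotypes numbered 1002 lower (5.96% against 6.73% of all peaks) and 1608 higher (9.57% against 10.3%) when scaled to total reads. With 1 mouse left out, where fewer mice make overlap rarer, they were 1897 to 2467 lower (11.3% to 14.7%, all peaks 12.3% to 16.9%) and 1832 to 3554 higher (10.9% to 21.1%, all peaks 11.4% to 19.8%).

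Replicate numbers were not taken as pairs of mice. With the replicate block in place of PC1, limma called 0 members and the median over the members was 0.03. Without PC1 and with this block alike, named members changed sign at Sfi1 (0.80), Klf15 (−0.43), Midn (−0.01), Nedd4l (0.02), Cidea (0.01) and Prdm16 (−0.10). With 1 mouse left out, the range was −0.08 to 0.37 for Klf15, −0.58 to 0.52 for Cidea, −0.04 to 0.30 for Prdm16 and −0.71 to 0.20 for Mrc1, and Cidea was 0.07 in DESeq2 and 0.09 in edgeR. The cause was not tested. These were the 7 of 79 named members that changed sign under any of 16 alternatives.

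The alternatives for the lists, single genes and unadjusted counts were added after seeing the data. The brown adipocyte median was −0.32 to −0.15 over all fits, Pparg kept 11 to 15 of its 15 members negative and Ppargc1a 8 to 9 of 9, and the median of the chromosome 16 stretch was 0.91 to 1.91. Other rules gave 19698 members (shared only where an inguinal peak covered at least 50%), 16317 (no inguinal peak within 1000 bp) and 12214 (a mean of at least 50 normalized reads). A median member held 43 to 127 reads in a library, and how small a difference could be detected with these mice and this depth was not tested.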
